A study of Mus musculus with 6 samples.

Results

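Bmf and its relatives of the Bcl2 family were followed in whole livers of CYP2D6-humanized mice across 3 stages of reproduction. The family was taken up because the main probe set of Bmf was far lower in the pregnant liver than before pregnancy, so Bmf was chosen by its own values on these arrays, which are given as a description with no test. The others belong to its family and were listed with earlier results of these data known. The list holds 10 genes, Bmf, Bcl2, Bcl2l1, Bcl2l11, Bax, Bak1, Bid, Bbc3, Mcl1 and Pmaip1, and 9 of them had a probe set that the platform annotation assigns to exactly 1 symbol, among 18193 genes tested. Bax was not analysed here. Each gene is represented by its brightest probe set over the 6 arrays, and its other probe sets are given beside it, which makes 30 probe sets for the 9 genes.

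The livers were those of mice before pregnancy, at 21 days of pregnancy and at 7 days postpartum, with 2 biological replicates per stage and 1 Affymetrix array per liver. Every animal, those before pregnancy included, was a C57BL/6 mouse transgenic for CYP2D6, the human gene of a drug-metabolising P450, and no mice without the transgene were analysed here. The sources used here do not give the promoter of the transgene, the age of the mice, whether postpartum animals nursed or the hour at which livers were taken, so a stage difference cannot be told apart from one in these conditions. All values are log2 signals, a 1-unit difference being a doubling, and SE is the moderated standard error of a difference from limma, a linear model fitted over all genes and arrays.

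The Bcl2 family sets the threshold for apoptosis at the outer membrane of mitochondria. Anti-apoptotic members (Bcl2, Bcl2l1, Mcl1) hold back the effectors Bax and Bak1, which otherwise form pores and release cytochrome c. BH3-only members (Bmf, Bcl2l11, Bid, Bbc3, Pmaip1) are sensors of stress that bind the anti-apoptotic members or activate the effectors directly. Bmf is held on the myosin V motor through a dynein light chain and takes part in the death of epithelial cells that lose their attachment. In hepatocytes Mcl1 and Bcl2l1 are both needed for survival, and Bid carries the signal of death receptors to mitochondria. FoxO transcription factors, which insulin signalling keeps out of the nucleus, are known to activate Bcl2l11 and Bbc3.

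Promoters are shown for Bmf, the family member furthest below its pre-pregnancy signal in pregnancy, and for Bcl2l11, the member called higher there. They are the RefSeq windows of build GRCm38.p6 that run from 250 bases before to 50 bases after a transcript start, and 8 of the 9 measured genes have at least 1 (15 windows in all). Bmf has 3 windows, all on the minus strand, at chr2:118549637-118549936, chr2:118547550-118547849 and chr2:118544538-118544837, and each is printed 5′ to 3′ along the gene. Bcl2l11 has 2 windows on the plus strand, and only that at chr2:128125788-128126087 is printed. Capitals mark the core letters bound by FoxO factors (GTAAACA, or TGTTTAC on the other strand).
Bmf, upstream start: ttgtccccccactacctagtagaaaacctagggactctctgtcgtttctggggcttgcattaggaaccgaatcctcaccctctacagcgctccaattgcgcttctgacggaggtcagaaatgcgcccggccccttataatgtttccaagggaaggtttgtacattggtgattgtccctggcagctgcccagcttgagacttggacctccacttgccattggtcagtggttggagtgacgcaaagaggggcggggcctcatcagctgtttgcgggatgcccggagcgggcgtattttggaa
Bmf, middle start: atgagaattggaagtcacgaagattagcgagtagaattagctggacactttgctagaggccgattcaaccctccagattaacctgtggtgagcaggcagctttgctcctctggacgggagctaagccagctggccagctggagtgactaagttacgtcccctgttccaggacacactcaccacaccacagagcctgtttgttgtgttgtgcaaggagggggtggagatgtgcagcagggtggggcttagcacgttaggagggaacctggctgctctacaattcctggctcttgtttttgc
Bmf, downstream start: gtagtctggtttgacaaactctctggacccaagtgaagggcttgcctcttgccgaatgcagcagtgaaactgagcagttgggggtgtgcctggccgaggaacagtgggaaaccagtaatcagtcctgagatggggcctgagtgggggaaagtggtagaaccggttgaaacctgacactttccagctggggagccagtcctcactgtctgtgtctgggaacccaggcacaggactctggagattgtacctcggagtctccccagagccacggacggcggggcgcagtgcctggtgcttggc
Bcl2l11, upstream start: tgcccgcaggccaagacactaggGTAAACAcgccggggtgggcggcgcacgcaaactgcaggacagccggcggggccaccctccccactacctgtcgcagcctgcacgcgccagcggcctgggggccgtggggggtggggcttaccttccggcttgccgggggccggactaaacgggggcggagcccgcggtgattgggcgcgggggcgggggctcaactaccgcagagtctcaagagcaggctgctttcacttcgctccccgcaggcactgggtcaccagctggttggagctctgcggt
The FoxO core is in 3.65% of 32851 mouse promoter windows of this length. Among the windows of the family it stands once in a Bcl2l11 window, 227 bases before the start, and once in a Bbc3 window (chr7:16310011-16310310), 167 bases before the start. The other Bcl2l11 window (chr2:128127325-128127624), not printed here, does not hold these letters. No Bmf window holds them on either strand. The E-box CACGTG, present in 7.15% of windows, is in none of the Bmf windows either. The arrays do not tell which start of a gene was in use, and a match is a description of the letters only.

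The main Bmf probe set (1454880_s_at) read 4.91 and 4.86 in the 2 pregnant livers, against 8.33 and 7.95 in the 2 pre-pregnancy livers. The pregnant livers lay close together and far below both pre-pregnancy livers, a difference of -3.255 ± 0.165 (SE, n = 2 per stage), or 9.55-fold lower. This is the 7th lowest of the 18193 differences in that comparison. Postpartum livers read 5.15 and 4.78, which overlap the pregnant ones, so the postpartum level was 0.08 ± 0.165 from that of pregnancy. Against pre-pregnancy, the postpartum difference was -3.175 ± 0.165 (9.03-fold lower), the lowest of all 18193 genes. Both comparisons with pre-pregnancy share the same 2 pre-pregnancy arrays, and the choice of Bmf rests on those arrays, so no p-value is given for any of them. In whole liver, fewer cells of a type and less RNA per cell cannot be told apart.

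**Figure D1:**
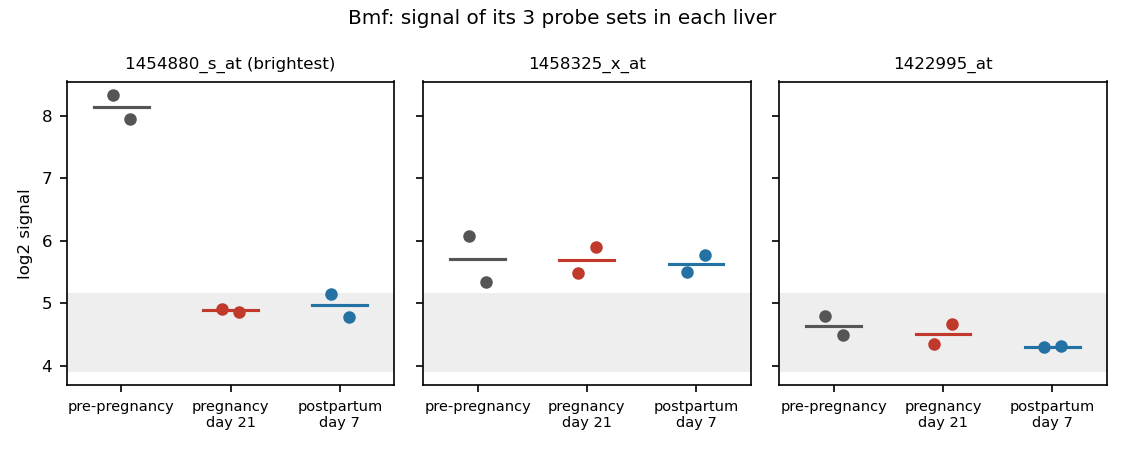
Log2 signal of each liver (points) and stage mean (lines) for the 3 Bmf probe sets; the grey band runs from the lowest array lower quartile (3.91) to the highest array median (5.15). Only 1454880_s_at shows pre-pregnancy livers far above the others (8.33 and 7.95); the stage means of the other sets lie close together.

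The other Bmf probe sets did not show this pattern. The set 1458325_x_at read 6.08 and 5.34 in pre-pregnancy livers, 5.49 and 5.9 in pregnant livers and 5.5 and 5.77 postpartum, so that all stages overlapped. The dim set 1422995_at read 4.79 and 4.49 in pre-pregnancy livers, 4.35 and 4.67 in pregnant livers and 4.29 and 4.32 postpartum. Their pregnancy differences were -0.015 and -0.13, so the low Bmf signal was seen with 1 of 3 probe sets. Averaging all 3 gives -1.133 for pregnancy and -1.195 for postpartum against pre-pregnancy. In Affymetrix naming, _s_at sets may bind several transcripts and _x_at sets hold probes that may bind unrelated ones. Low readings of the main set lie near the array medians (5.09 to 5.15), where signal is compressed towards background, so the fold is imprecise.

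Among the other BH3-only genes, Bcl2l11, which encodes the activator Bim, rose in pregnancy and fell after birth. Its main probe set (1435448_at) read 7.88 and 8.36 in pregnant livers, against 7.52 and 7.29 in pre-pregnancy livers. Both pregnant livers lay above both earlier ones, a rise of 0.715 ± 0.173 (1.64-fold, limma adjusted p = 0.0336). Postpartum livers read 7.08 and 6.88, below all pregnant and pre-pregnancy livers. Bcl2l11 thus fell by 1.14 ± 0.173 from pregnancy to postpartum (2.2-fold lower, limma adjusted p = 0.0174). The postpartum level was -0.425 ± 0.173 from that before pregnancy and did not pass the test (limma adjusted p = 0.191, 95% interval -0.83 to -0.02).

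Probe sets of Bcl2l11 shared the postpartum direction. All 5 were lower postpartum than in pregnancy, by -1.14 to -0.525, with 1 called when every probe set was tested by itself. Against pre-pregnancy, 4 of 5 were higher in pregnancy, 2 of them called, the main set and the dim 1456006_at. The bright set 1456005_a_at read 7.63 and 8.2 in pregnant livers, against 7.49 and 7.31 in pre-pregnancy livers, with the stages apart as in the main set. It was not called (limma adjusted p over all probe sets = 0.14). The exception, 1435449_at, read 5.32 and 5.55 in pregnant livers, against 5.85 and 5.77 in pre-pregnancy livers. That set was lower by a further step postpartum, at 4.97 and 4.85, and its postpartum fall of 0.9 against pre-pregnancy was called (adjusted p over all probe sets = 0.0061). Transcripts of Bcl2l11 that the sets may separate were not resolved here.

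The calls of Bcl2l11 depended on single arrays, although its direction did not. Its rise in pregnancy ranged from 0.475 to 0.955 with each array left out in turn, and the call was lost without pre-pregnancy replicate 1 (limma adjusted p = 0.123), pre-pregnancy replicate 2 (0.159) or pregnancy replicate 2 (0.117). The mean of all probe sets gave 0.316 (limma adjusted p = 0.201). The postpartum fall ranged from -1.38 to -0.9 and kept its call without either pregnancy array, while the adjusted p was 0.0526 without either pre-pregnancy array, and 0.0703 and 0.111 without postpartum replicates 1 and 2.

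Bid, the substrate of caspase 8 that links death receptors to mitochondria, read 8.04 and 7.94 in pre-pregnancy livers, 7.79 and 7.71 in pregnant livers and 7.64 and 7.66 postpartum. Stages did not overlap, but no difference passed the test. Against pre-pregnancy, Bid was at -0.24 ± 0.101 in pregnancy (limma adjusted p = 0.153) and -0.34 ± 0.101 postpartum (limma adjusted p = 0.0853), and the postpartum level was -0.1 ± 0.101 from that of pregnancy (limma adjusted p = 0.627). A dimmer Bid set, 1448560_at, was called lower postpartum against pre-pregnancy by 0.66 when tested by itself (adjusted p over all probe sets = 0.0221). Bbc3, the p53 target that encodes Puma, read 7.84 and 7.86 in pre-pregnancy livers, 7.7 and 7.78 in pregnant livers and 8.15 and 7.86 postpartum. Its largest difference, 0.265 ± 0.122 between postpartum and pregnancy, did not pass (limma adjusted p = 0.271). Pmaip1, which encodes the Mcl1-binding protein Noxa, lay near background throughout, between 3.86 and 4.22, and differed by at most -0.245 (postpartum against pre-pregnancy, limma adjusted p = 0.254).

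**Figure D2:**
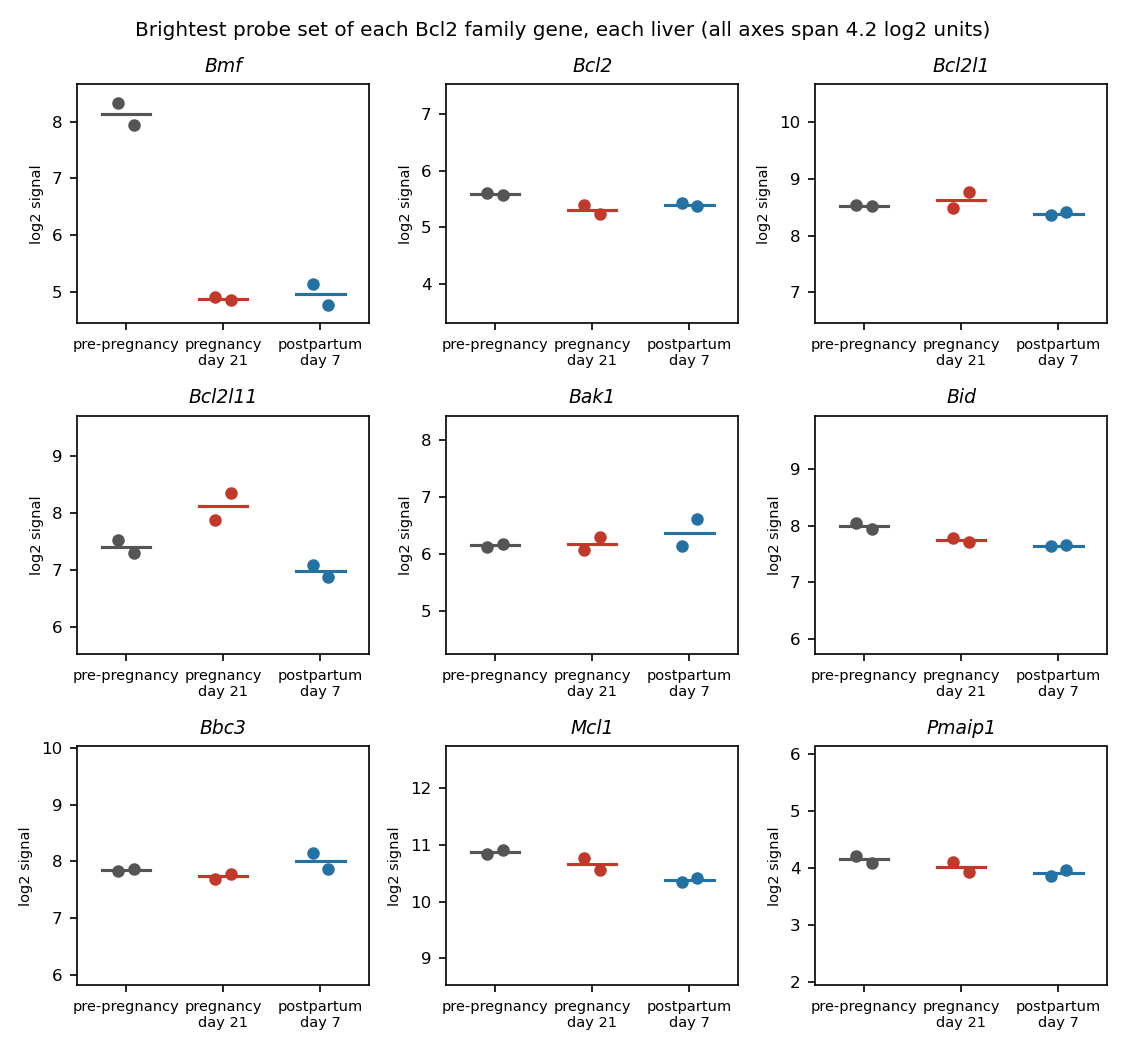
Log2 signal of each liver (points) and stage mean (lines) for the brightest probe set of the 9 measured genes; every axis spans the same number of log2 units but starts at its own level, since levels of different probes cannot be compared. Bmf is high before pregnancy only, Bcl2l11 is highest in pregnancy (7.88 and 8.36) and lowest postpartum (7.08 and 6.88), and the other genes stay within narrow ranges.

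Of the anti-apoptotic genes, Mcl1, a short-lived protein that hepatocytes need, gave values that depended on the probe set. Its brightest set (1448503_at) read 10.35 and 10.41 postpartum, against 10.83 and 10.91 before pregnancy. Postpartum livers lay below both pre-pregnancy livers, a fall of 0.49 ± 0.114 (1.4-fold lower, limma adjusted p = 0.0419). In pregnancy the same set read 10.77 and 10.55, which was -0.21 ± 0.114 from pre-pregnancy (limma adjusted p = 0.25), and the postpartum level was -0.28 ± 0.114 from that of pregnancy (limma adjusted p = 0.216).

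Other Mcl1 sets went the opposite way. Tested by itself, 1437527_x_at was called higher in pregnancy, with 9.23 and 9.25 in pregnant livers, against 8.5 and 8.45 in pre-pregnancy livers, a difference of 0.765 (adjusted p over all probe sets = 0.0045). In all, 4 of 6 Mcl1 sets were called higher in pregnancy and 0 lower, and 3 were called higher and 1 lower postpartum against pre-pregnancy. All 6 were lower postpartum than in pregnancy, by -0.28 to -0.055, with 0 called by limma (1 at an unadjusted p at or below 0.05). The mean of the 6 sets gave 0.351 for pregnancy and 0.192 for postpartum against pre-pregnancy, so the direction of Mcl1 against pre-pregnancy is not settled by these arrays. The fall of the brightest set also lost its call without either pre-pregnancy array (limma adjusted p = 0.186 and 0.168) or either postpartum array (0.157 and 0.163).

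**Figure D3:**
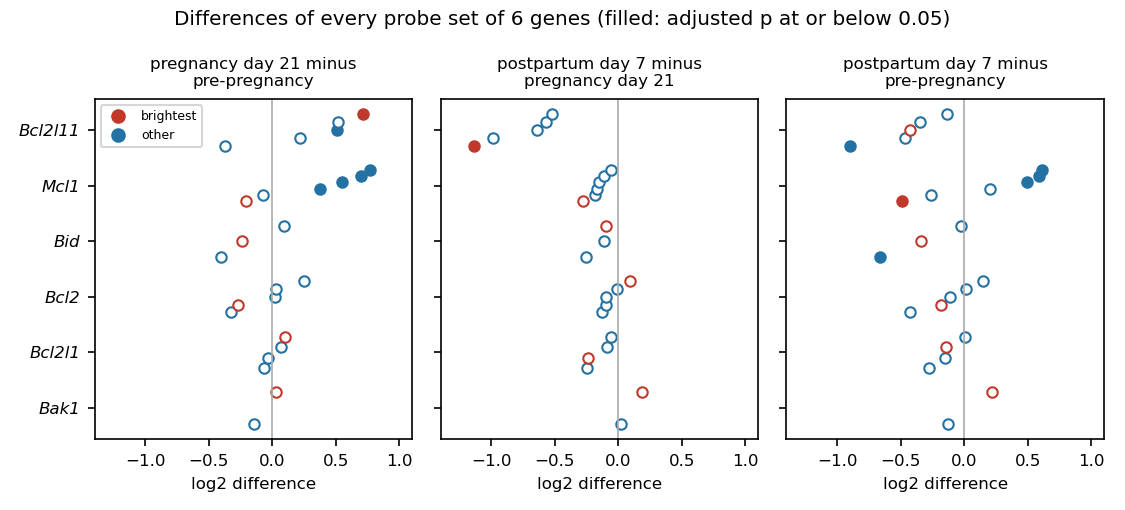
Log2 difference of every probe set of 6 family genes in the 3 comparisons; red marks the brightest set of a gene and filled points have an adjusted p over all probe sets at or below 0.05. Bcl2l11 sets all lie below 0 between postpartum and pregnancy (-1.14 to -0.525), and Mcl1 sets lie on both sides of 0 in the comparisons with pre-pregnancy (-0.21 to 0.765 in pregnancy).

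Bcl2l1, which encodes Bcl-xL, read 8.53 and 8.52 in pre-pregnancy livers, 8.49 and 8.76 in pregnant livers and 8.36 and 8.41 postpartum. Pregnant and pre-pregnancy livers overlapped (0.1 ± 0.118, limma adjusted p = 0.603), and the postpartum level was -0.24 ± 0.118 from that of pregnancy (limma adjusted p = 0.3). Of its 4 probe sets 0 were called in any comparison, and 0 had an unadjusted limma p at or below 0.05. Bcl2 itself was dim, at 5.6 and 5.57 in pre-pregnancy livers, 5.39 and 5.23 in pregnant livers and 5.42 and 5.38 postpartum. Its difference of -0.275 ± 0.105 in pregnancy did not pass (limma adjusted p = 0.121, 95% interval -0.52 to -0.03). A set almost as bright, 1422938_at (mean 5.42, against 5.43), gave 0.25 there. In pregnancy 3 of the 5 Bcl2 sets were higher and 2 lower, so the direction differed between sets. By limma 0 of the 5 sets were called in any comparison (2, 0 and 1 had an unadjusted p at or below 0.05).

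The effector Bak1 read 6.13 and 6.18 in pre-pregnancy livers, 6.07 and 6.3 in pregnant livers and 6.14 and 6.61 postpartum, with overlap in every comparison. Its differences were 0.03 ± 0.164 in pregnancy against pre-pregnancy (95% interval -0.35 to 0.41), 0.19 ± 0.164 in postpartum against pregnancy and 0.22 ± 0.164 in postpartum against pre-pregnancy, and none passed (limma adjusted p = 0.919, 0.559 and 0.497). The dimmer Bak1 set, 1425716_s_at, gave -0.145 in pregnancy, opposite in sign to the main set, and was not called. The direction of such small differences also changed under other settings.

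Of the 8 family genes other than Bmf, 1 passed the test in pregnancy against pre-pregnancy (Bcl2l11, higher), where 13.7% of all genes did (5.46% higher and 8.25% lower). Between postpartum and pregnancy 1 passed (Bcl2l11, lower), against 3.29% of all genes (2.41% higher and 0.879% lower). Between postpartum and pre-pregnancy 1 passed (Mcl1, lower), against 7.66% (3.91% higher and 3.75% lower). Each share is 1 gene of 8, too few to set apart from those of all genes. Arrays of the 2 stages did not overlap for 5, 5 and 6 of the 8 genes in the same order of comparisons, against 59.6%, 50.1% and 52.6% of all genes. Median differences of the 8 genes were -0.12, -0.1 and -0.21, and those of all genes 0.05, -0.01 and 0.03. Tested one by one, 6, 1 and 6 of the 27 probe sets of these 8 genes were called, against 12.8%, 2.55% and 7.66% of all probe sets. Sets of 1 gene are not independent of each other.

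**Figure D4:**
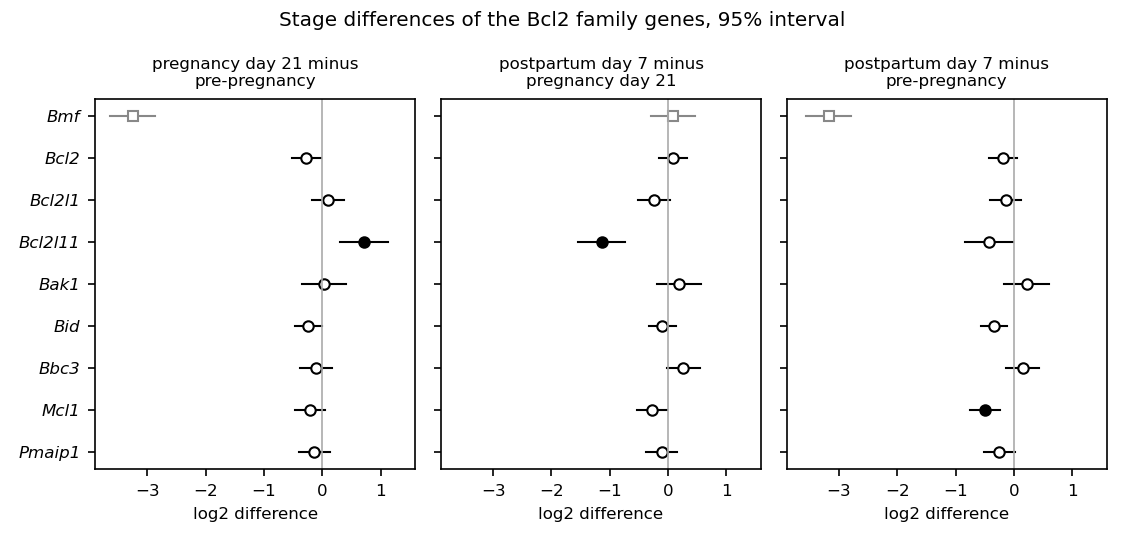
Log2 difference of each family gene (points) with its 95% interval (lines) in the 3 comparisons; filled points have a limma adjusted p at or below 0.05, and the open squares of Bmf are a description that was not tested. Bmf stands at -3.255 and -3.175 in the comparisons with pre-pregnancy and near 0 between postpartum and pregnancy, while intervals of genes not called lie within -0.52 to 0.41 in pregnancy against pre-pregnancy.

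The 5 genes whose profile over the 6 arrays lay nearest to that of Bmf were Cyp2d9, Hsd3b2, Uhrf1, Cers3 and Serpina4-ps1. Likeness was the Euclidean distance between log2 profiles, each centred on its own mean, and these genes lay at 1.26, 1.29, 1.37, 1.47 and 1.49. Cyp2d9, a P450 of the mouse Cyp2d cluster, read 8.78 and 8.68 in pre-pregnancy livers, 6.8 and 6.34 in pregnant livers and 6.16 and 6.44 postpartum. Hsd3b2, a hydroxysteroid dehydrogenase gene, read 10.25 and 10.3 in pre-pregnancy livers, 7.88 and 7.47 in pregnant livers and 7.69 and 8.39 postpartum. Like Bmf, both stayed low postpartum. Uhrf1, a factor that maintains DNA methylation in replicating cells, read 7.16 and 7.03 in pre-pregnancy livers, 4.61 and 4.02 in pregnant livers and 5.22 and 5.17 postpartum, with its postpartum livers above its pregnant ones. A dimmer Uhrf1 set showed a smaller gap, with 5.71 and 5.41 before pregnancy, 4.66 and 4.61 in pregnant livers and 4.71 and 5.07 postpartum. The ceramide synthase gene Cers3 was near background outside pre-pregnancy, at 3.48 and 3.24 in pregnant livers, against 5.54 and 5.81 in pre-pregnancy livers. Serpina4-ps1, annotated as a pseudogene, read 9.19 and 9.75 in pregnant livers, against 12.26 and 12.48 in pre-pregnancy livers, and all of its 3 probe sets had pregnant and postpartum livers below those before pregnancy. Genes were picked for this pattern, so their differences carry no test.

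Of 16 further family genes 11 were measured, among them Bad, Bok, Bik and the mitophagy receptor Bnip3. By limma 0 of the 11 were called in any of the 3 comparisons, against 13.7%, 3.29% and 7.66% of all genes, and 3, 1 and 4 had an unadjusted p at or below 0.05, against 31.0%, 20.7% and 22.9%. With 11 genes, these counts are too small to set apart from the shares of all genes. Their median differences were 0.14, -0.11 and 0.09. Bcl2l2, which encodes the anti-apoptotic Bcl-w and is named here after its values were seen, came nearest, at -0.37 ± 0.114 in pregnancy (limma adjusted p = 0.0691) and -0.46 ± 0.114 postpartum (limma adjusted p = 0.0502), both against pre-pregnancy.

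Downstream of the mitochondrion, genes of the apoptosome, caspases and their inhibitors were lower in pregnancy where they changed. Of 14 measured of 16 listed, 5 fell and 0 rose against pre-pregnancy, where 8.25% of all genes fell and 5.46% rose. The list's median difference was -0.33, against 0.05 for all genes. Apaf1, the scaffold that activates caspase 9, read 5.14 and 4.88 in pregnant livers, against 5.86 and 5.48 in pre-pregnancy livers (-0.66 ± 0.151, limma adjusted p = 0.0282). Cycs, the cytochrome c that Apaf1 binds once it is released, read 12.69 and 12.6 in pregnant livers, against 13.16 and 13.1 in pre-pregnancy livers (-0.49 ± 0.101, limma adjusted p = 0.021). Both genes had pregnant livers below every pre-pregnancy liver. Cycs also serves the respiratory chain, and its 3 other probe sets were lower too, by -0.94 to -0.6. Casp2 (-0.62 ± 0.129), the nuclease gene Dffb (-0.56 ± 0.12) and Endog, a mitochondrial nuclease (-0.48 ± 0.126), completed the falls. After birth Endog rose, with 11.06 and 11.1 in postpartum livers, against 10.29 and 10.61 in pregnant livers (0.63 ± 0.126, limma adjusted p = 0.0427), the only one of the 14 called between these stages, where 2.41% of all genes rose and 0.879% fell. Postpartum livers also differed from pre-pregnancy in Xiap, the main caspase inhibitor (-0.63 ± 0.123), and Dffa, the inhibitor of Dffb (0.43 ± 0.0971). The other probe sets of Xiap gave -0.95 to 0.19, on both sides of 0, so its direction differed between sets. The second set of Dffa gave 0.01, so whether it rose depends on the set. Those are 1 fall and 1 rise of 14, against 3.75% and 3.91% of all genes.

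Partners and upstream regulators of the BH3-only genes were called singly. In pregnancy 2 of 12 measured genes rose and 0 fell, where 5.46% of all genes rose and 8.25% fell. Ddit3, a stress-induced factor known to activate Bcl2l11 transcription, read 7.7 and 7.82 in pregnant livers, against 7.09 and 6.91 in pre-pregnancy livers (0.76 ± 0.146, limma adjusted p = 0.0162). Its other probe set gave 0.23, and the mean of both 0.493, which was not called (limma adjusted p = 0.105). The FoxO factor gene Foxo4 rose by 0.44 ± 0.101 in its brightest set, but its other set gave -0.27, so its direction is not settled. Dynll1, the dynein light chain that tethers Bim, read 11.65 and 11.69 postpartum, against 11.02 and 11.12 in pregnant livers (0.6 ± 0.102, limma adjusted p = 0.0267), and its 3 other sets gave differences of 0.52 to 0.78. It was also higher postpartum than before pregnancy (0.52 ± 0.102). In that last comparison 2 of 12 were called higher in their brightest sets, Dynll1 and Foxo4, against 3.91% of all genes. The other Foxo4 set gave -0.44 there, so its direction is not settled in that comparison either. The 1 called lower, against 3.75% of all genes, was Usp9x, a deubiquitinase that stabilises Mcl1 (-0.41 ± 0.0963, with other sets at -0.98 to 0.24).

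Of 12 measured FoxO target genes, 3 rose and 0 fell in pregnancy, where 5.46% of all genes rose and 8.25% fell, and the list's median was 0.24. The 9 not called went both ways. Pdk4 was at -0.405, Ccng2 at -0.21 and G6pc at -0.125. Pck1 was at 0.035, Sesn3 at 0.05, Bcl6 at 0.16, Cited2 at 0.315, Insr at 0.35 and Igfbp1 at 1.17 (limma adjusted p = 0.0547). Txnip, an inhibitor of thioredoxin and glucose uptake, read 9.95 and 10.15 in pregnant livers, against 9.45 and 9.4 in pre-pregnancy livers (0.62 ± 0.159, limma adjusted p = 0.0395). Fbxo32, a ubiquitin ligase gene, read 6.16 and 6.02 in pregnant livers, against 5.65 and 5.46 in pre-pregnancy livers (0.54 ± 0.142, limma adjusted p = 0.0449). Postpartum both fell against pregnancy, Txnip by 1.26 ± 0.159 (limma adjusted p = 0.0102) and Fbxo32 by 0.71 ± 0.142 (limma adjusted p = 0.0427). Irs2, the insulin receptor substrate, rose in pregnancy by 1.12 ± 0.219 (limma adjusted p = 0.0168), with 8.21 and 8.48 in pregnant livers, against 6.88 and 7.56 in pre-pregnancy livers. Unlike Txnip, it was still higher postpartum than before pregnancy (1 ± 0.219, limma adjusted p = 0.0348). Cited2, a transcriptional coregulator, read 9.8 and 9.85 postpartum, against 9.13 and 9.37 in pregnant livers (0.57 ± 0.116, limma adjusted p = 0.0437). In all, 1 of the 12 rose and 2 fell between postpartum and pregnancy, where 2.41% of all genes rose and 0.879% fell. Between postpartum and pre-pregnancy 2 rose and 0 fell, against 3.91% and 3.75% of all genes.

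**Figure D5:**
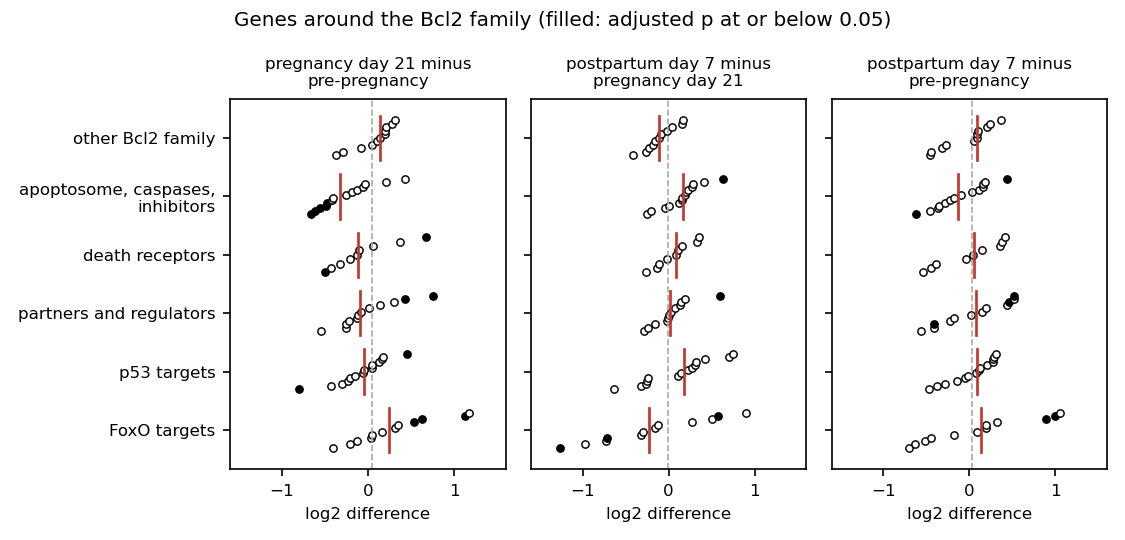
Log2 difference of each measured gene of 6 lists around the family in the 3 comparisons; filled points have a limma adjusted p at or below 0.05, red lines are list medians and the dashed line is the median of all genes. Genes of the apoptosome list lie mostly below the dashed line in pregnancy (median -0.33), and FoxO targets between postpartum and pregnancy reach down to Txnip at -1.26.

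These counts leaned on few arrays. The 5 falls of the apoptosome list became 0 and 1 without pre-pregnancy replicates 1 and 2, 2 without pregnancy replicate 2, and 4 without each of the other arrays. They became 3 with dim genes left out, since Apaf1 and Dffb are among those. The 3 rises of FoxO targets became 0 without pre-pregnancy replicate 1 or pregnancy replicate 2, and up to 4 otherwise. Of the 14 gene calls named from the lists in pregnancy, including those of death receptor and p53 genes given further on, 14, 11, 7 and 10 were lost without pre-pregnancy replicates 1 and 2 and pregnancy replicates 1 and 2. Of 5 between postpartum and pregnancy, 4 were lost without any one array except pregnancy replicate 2, where 3 were lost. Of 7 between postpartum and pre-pregnancy, 7 and 5 were lost without pre-pregnancy replicates 1 and 2, and 6 and 7 without postpartum replicates 1 and 2. Txnip between postpartum and pregnancy kept its call with each of the 6 arrays left out.

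The tissue matched its label, and non-hepatocyte markers moved beside some of these results. Means of the 8 hepatocyte markers lay between 13.97 and 14.04 on every array. By limma 0 of the 8 were called in any comparison, against 13.7%, 3.29% and 7.66% of all genes. At an unadjusted limma p at or below 0.05 there were 1, 0 and 0, against 31.0%, 20.7% and 22.9%. Means of the 9 endothelial markers were 8.03 to 8.24 before pregnancy, 7.63 to 7.74 in pregnant livers and 7.64 to 7.77 postpartum. Of these 9, 3 were called lower in pregnancy, where 8.25% of all genes fell, among them Emcn (-0.7 ± 0.173) and Tek (-0.61 ± 0.133). Of 9 Kupffer cell markers 2 fell in pregnancy (Timd4 by 0.9 ± 0.1 and Lyz2 by 0.47 ± 0.123), where 8.25% of all genes fell. Marco of the same list read 6.87 and 7.08 before pregnancy, 7.94 and 7.32 in pregnant livers and 7.88 and 8.13 postpartum. It was called higher postpartum than before pregnancy (1.03 ± 0.202), while Timd4 was called lower there (-0.61 ± 0.1). Those are 1 rise and 1 fall of 9, against 3.91% and 3.75% of all genes, with a list median of -0.01. Neutrophil markers averaged 5.75 to 5.82 in pregnant livers, against 5.37 to 5.48 before pregnancy. In pregnancy 2 of 7 were called higher, where 5.46% of all genes rose: S100a9 (0.74 ± 0.102) and Mpo, near background. Lrat, a stellate cell marker, fell by 1.47 ± 0.313 in pregnancy, the only one called of 7, where 8.25% of all genes fell. Its pregnant livers stood apart from each other, at 8.64 and 7.51, against 9.64 and 9.45 before pregnancy. The Lrat difference was -2.035 to -0.905 with arrays left out. Of 8 T and NK cell markers, 5 B and plasma cell markers and 5 bile duct markers 0 were called by limma in pregnancy, against 13.7% of all genes. At an unadjusted limma p at or below 0.05 there were 2, 0 and 0, against 31.0%. These lists are too short to set apart from all genes. T and NK cell means lay at 5.28 to 5.46 on every array. Postpartum against pre-pregnancy, 1 of the 5 B and plasma cell markers was called lower, the dim Ms4a1 (-0.54 ± 0.126), where 3.75% of all genes fell. Bile duct means were 4.92 to 5.53 postpartum, against 4.71 to 4.85 before pregnancy, with 0 called, where 7.66% of all genes were. Of 6 pancreatic acinar markers 1 rose and 1 fell in pregnancy, where 5.46% of all genes rose and 8.25% fell. Cela3b rose (3.04 ± 0.165), and Cela1 fell (-1.18 ± 0.112) and was also lower postpartum than before pregnancy (-1.04 ± 0.112). The part of these shifts in the values of Bmf, Bcl2l11 and the lists was not tested. The 3′ minus 5′ signal of the Gapdh control probes was -0.02 and 0 before pregnancy, 0.09 and 0.27 in pregnant livers and 0.29 and 0.3 postpartum, and that of the b-Actin control was 1.27 and 1.19, 1.06 and 1.21, and 1.44 and 1.43 at the same stages. Their part was not tested either. Replicate arrays correlated across genes at 0.994 to 0.997.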

How the data were processed

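Total RNA (250 ng per liver, Trizol) was labelled with biotin by a 3′ in vitro transcription kit, per the labels' protocols. The deposited log2 values of 45101 probe sets were made by the authors with RMA and Affymetrix Power Tools, per the submitters' processing notes, with versions and settings not given in the sources used here. That the log base is 2 was inferred from the values (2.69 to 15.05).

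Names came from the platform annotation, in which 34945 probe sets have 1 symbol, 932 several and 9160 none here, beside 64 controls. A gene table listed the IDs of 34741, and 0 symbols changed. For each of 18193 genes (9010 with more than 1 probe set) the brightest set was tested with limma 3.58.1 in R 4.3.3 (a mean per stage, eBayes, all 6 arrays, 3 residual and 4.8 prior degrees of freedom), with Benjamini-Hochberg adjustment over all genes, a threshold of 0.05, two-sided. Probe sets were also fitted one by one, with p-values adjusted over 34945. The number of arrays limits the precision, and the labels do not say more of the replicates than that they are biological. The fit was tested on simulated data.

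The gene list was planned as 9 genes beside Bmf, of which 8 could be measured. Members, lists, naming rule and tests were chosen with earlier results of these data known. Named from each list were called genes whose arrays did not overlap (up to 5 per list and comparison, up to 2 for cell types), and the 5 genes nearest to Bmf. The labels do not say that equal replicate numbers pair the livers, and the main fit did not pair them. Deviations of same-numbered livers correlated at 0.028, 0.111 and -0.027. With 2 livers per stage, that cannot exclude livers handled together by replicate number. Alternatives were the number as a block, leaving out dim genes, repeated quantile normalization, centring on medians, a variance trended and robust, each probe set alone or averaged within a gene, only the 2 stages compared, and each array left out. Promoters are from RefSeq, build GRCm38.p6.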

Additional observations from a re-analysis of the deposited data

How the results depend on the processing

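Bmf kept its sign against pre-pregnancy under every setting run. With each array left out it ranged from -3.445 to -3.065 in pregnancy and from -3.365 to -2.985 postpartum, both against pre-pregnancy, and from -0.105 to 0.265 between postpartum and pregnancy. The mean of all its probe sets gave -1.133 and -1.195 against pre-pregnancy; that setting mixes in the sets that did not differ. Counts of called family genes, 1 in each comparison, were 0 to 1 with arrays left out. The count was 0 between postpartum and pregnancy with only the 2 stages compared, and 0 between postpartum and pre-pregnancy with the replicate block, repeated quantile normalization or the mean of all probe sets. In pregnancy the mean of all probe sets also called 1, but that gene was Mcl1 (0.351, adjusted p = 0.0339). Over all genes, 2494, 599 and 1393 calls (pregnancy against pre-pregnancy, postpartum against pregnancy, postpartum against pre-pregnancy) became 323 to 1977, 114 to 528 and 73 to 1582 with arrays left out. The middle count was 203 with only the 2 stages compared. Leaving out 1 array leaves a stage of 1, assumed to vary like the others. With the replicate block the counts were 2612, 574 and 1567, and Mcl1 postpartum against pre-pregnancy had an adjusted p of 0.0514; the block ended no other family call.

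Signs turned for small differences. Against pre-pregnancy, pregnant Bcl2l1 was -0.035 and Bak1 -0.085 without pregnancy replicate 2, and 0.235 and 0.145 without pregnancy replicate 1. Bak1 was -0.005 with arrays centred on medians and -0.057 with the mean of all probe sets. With that mean Mcl1 was 0.351 in pregnancy and 0.192 postpartum against pre-pregnancy, and Bcl2 was -0.05 between postpartum and pregnancy. Without postpartum replicate 2, Bak1 was -0.045 against pregnancy and -0.015 against pre-pregnancy, and without postpartum replicate 1 it was 0.425 and 0.455. The cause was not tested. Higher calls made up 39.8% in pregnancy, 52.8% after repeated quantile normalization and 32.7% with centring on medians; between postpartum and pregnancy these were 73.3%, 60.2% and 79.5%. Leaving out genes dimmer than 5.51 removes Bcl2, Pmaip1, Apaf1 and Dffb. Signal near background limits what can be said of Bmf in pregnancy, Bcl2, Pmaip1, Apaf1 and Dffb.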

Other observations

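Upstream of Bid, genes of the death receptor pathway were called singly. Of 9 measured of 10 listed, 1 rose and 1 fell in pregnancy against pre-pregnancy, close to the 5.46% and 8.25% of all genes that did. By limma 0 were called postpartum against pregnancy or against pre-pregnancy, where 3.29% and 7.66% of all genes were. More had an unadjusted limma p at or below 0.05 in the comparisons with pre-pregnancy. These were 5 of 9 in pregnancy and 6 of 9 postpartum, against 31.0% and 22.9% of all genes. Between postpartum and pregnancy there were 0, against 20.7%. Tnfrsf1a, the main tumour necrosis factor receptor of hepatocytes, read 10.25 and 10.46 in pregnant livers, against 9.63 and 9.72 in pre-pregnancy livers, a rise of 0.68 ± 0.122 (limma adjusted p = 0.0126). Tnfrsf1b, a second receptor for that ligand, read 7.57 and 7.87 in pregnant livers, against 8.23 and 8.2 in pre-pregnancy livers, a fall of 0.5 ± 0.123 (limma adjusted p = 0.0364). Pregnant and pre-pregnancy livers did not overlap for either gene. A dimmer Tnfrsf1b set gave 0.09, and its call was kept with 1 of 6 arrays left out in turn.

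Of 14 measured p53 target genes of 15 listed, 1 rose and 1 fell in pregnancy, close to the shares of all genes (5.46% and 8.25%), with a median of -0.05. By limma 0 were called postpartum against pregnancy or against pre-pregnancy, where 3.29% and 7.66% of all genes were. At an unadjusted limma p at or below 0.05 there were 4 and 0 of 14, against 20.7% and 22.9% of all genes. Ccng1, a cyclin gene that p53 activates, read 8.98 and 9.16 in pregnant livers, against 10.21 and 9.53 in pre-pregnancy livers, a fall of 0.8 ± 0.205 (limma adjusted p = 0.04). Its pre-pregnancy livers stood apart from each other, and the value was -0.46 to -1.14 with arrays left out. Sesn2, a stress-induced regulator of growth signalling, read 7.96 and 7.73 in pregnant livers, against 7.45 and 7.32 in pre-pregnancy livers, a rise of 0.46 ± 0.117 (limma adjusted p = 0.0388). Both calls were kept with 1 of 6 arrays left out. Bbc3, a p53 target within the family, was not called.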
